A study of Homo sapiens with 36 samples.

Results

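Loss of the RNA-binding protein RBPMS was compared with the unmodified state in the heavy polysome fraction of HUES6 cells, an established human embryonic stem cell line. The fraction is called Polysome2 in the labels. The comparison took in 9121 Ensembl transcripts of 223367 in the deposited table, chosen because they reached 10 TPM (an abundance divided by transcript length and scaled to the same total in every library) in at least 3 of the 6 Polysome2 libraries. The choice used the level and not the difference between genotypes, but it did not take in the high transcripts of all libraries alike, as described below.

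A polysome is an mRNA that carries several ribosomes at once, and in a sucrose gradient it sinks further the more ribosomes it holds. RNA of the heaviest fraction is therefore commonly read as the RNA most engaged in translation, although other heavy particles can sediment there too. RBPMS binds RNA through an RNA recognition motif and is known as a regulator of splicing in smooth muscle and as a factor in the translation and fate choices of pluripotent cells.

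The 6 libraries came from 3 cultures labelled WT and 3 labelled RBPMS KO, all grown in FTDA, a defined medium for pluripotent cells, and all exposed to cycloheximide at 100 ng/ml for 5 min, which holds ribosomes on their mRNAs. Each culture was also sampled as unfractionated Input and as 40S, 80S, disome and Polysome1 fractions, which gave 36 libraries in 12 groups of 3. The labels do not say how the knockout was made, whether the KO cultures are 1 clone, or whether cultures of a genotype were grown separately, so the p-values measure only the spread between these samples. The same amount of RNA went into each library, so a value is a share of the fraction and not an amount per cell, and fewer cells holding a transcript cannot be told apart from less of it per cell. How many reads lie behind a value cannot be read from TPM, and the depth is unknown.

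No gene name accompanies the transcripts, and none of the 59792 genes in the naming table had an Ensembl ID. Results are therefore given for groups of transcripts, and 4 transcripts are named by ID. RBPMS, pluripotency markers and other gene lists were not analysed here, so the knockout and the cell type rest on the labels. In all 36 libraries 567 of the 9121 carried exactly the values of another one of them and are not independent measurements. The level of 10 TPM cut through a dense range: for 500 transcripts the value that met it, the lowest of their 3 highest, was between 10 and 11 TPM, and 650 just missed with one between 9 and 10 TPM.

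The KO libraries were of different kinds, which bears on every result that follows. KO replicate 3 resembled WT: over the 9121 transcripts its Pearson's r with the WT replicates on the log2(TPM + 1) scale was 0.831, 0.857 and 0.771, against 0.856 to 0.948 between WT replicates. KO replicates 1 and 2 resembled each other (r = 0.925) and not WT, with r from 0.248 to 0.376 to the WT replicates. Against the mean of each WT fraction, KO replicate 3 was closest to WT Polysome2 (r = 0.848). The libraries labelled KO Polysome2 replicates 1 and 2 were closest to WT disome (r = 0.580 and 0.636). Their r to WT 40S (0.569 and 0.602) and WT 80S (0.533 and 0.592) was nearly as high. It was lower to WT Polysome1 (0.433 and 0.496), WT Polysome2 (0.291 and 0.364) and WT Input (0.179 and 0.204). Their composition was thus unlike that of WT Polysome2. These libraries were not compared with the other fractions of their own cultures, so whether the fraction label holds was not tested. These correlations are across transcripts, which share libraries and are not independent replicates.

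The abundant transcripts show the same split. Of the 100 most abundant transcripts of WT replicate 1, KO replicates 1, 2 and 3 shared 32, 36 and 80 with their own 100. The WT replicates shared 71 to 92 among themselves. The median absolute log2 difference between 2 libraries was 0.26 to 0.59 within WT, 0.45 to 0.66 between KO replicate 3 and WT, and 1.66 to 2.12 between KO replicates 1 or 2 and WT.

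The level of the typical transcript of this set separated these cultures as well. The median was 25.8, 25.2 and 23.9 TPM in WT replicates 1, 2 and 3, and 11.0, 12.5 and 29.7 TPM in KO replicates 1, 2 and 3. KO replicates 1 and 2 lay below all WT replicates and KO replicate 3 above them, so the genotypes overlapped. Of the 9121 transcripts, 1220 and 1002 were listed at 0 in KO replicates 1 and 2, against 20 in KO replicate 3 and 58 to 76 in WT. The choice of the 9121 bears on these values. Reaching 10 TPM in the WT libraries alone sufficed for entry, and in KO replicates 1 and 2 alone it did not. Of 6853, 6587 and 10168 transcripts at 10 TPM in KO replicates 1, 2 and 3, 4757, 5091 and 8684 were among the 9121. In WT replicates 1, 2 and 3 it was 8145 of 9015, 8173 of 8809 and 7633 of 8773. Differences of KO replicates 1 and 2 over the 9121 are therefore in part fixed by the choice.

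**Figure D1:**
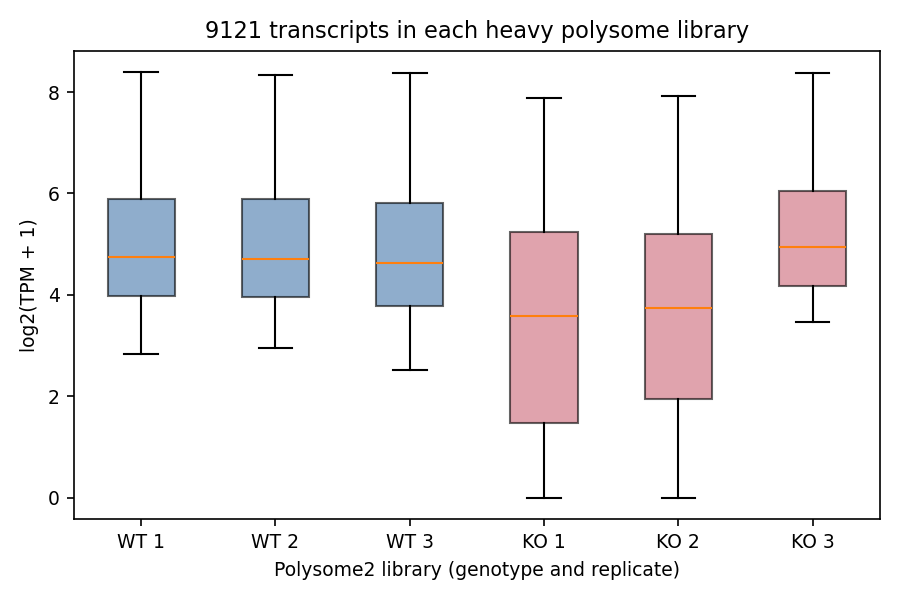
Levels of the 9121 transcripts as log2(TPM + 1) in each Polysome2 library; the line is the median, the box spans the 25th to 75th percentile and the whiskers the 5th to 95th. KO replicates 1 and 2 have lower medians (11.0 and 12.5 TPM) and longer lower tails than the WT replicates, while KO replicate 3 (29.7 TPM) lies slightly above them.

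Measures of the whole library did not separate the genotypes by a test. Transcripts at 10 TPM or more numbered 8866 ± 131 in WT and 7869 ± 1995 in KO (SD, n = 3; exact permutation test, two-sided p = 0.4, adjusted 0.4). The 10 most abundant transcripts took 8.37% ± 2.74 of the TPM in WT and 12.2% ± 5.84 in KO (SD, n = 3; exact permutation p = 0.4, adjusted 0.4). Rows of the ERCC spike-in set, RNAs of known sequence that are added from outside, summed to 9.41, 8.50 and 2.55 TPM in WT replicates 1, 2 and 3 and to 579, 498 and 47.8 TPM in KO. All KO values were above all WT values, with a two-sided exact permutation p of 0.1 (adjusted 0.3), and 0.1 is the smallest p that 3 against 3 can give. Of the 92 spike-in rows, 15, 13 and 7 were above 0 in WT replicates 1, 2 and 3 and 37, 34 and 18 in KO. The part of spike-in share in the differences described below was not tested.

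Where the transcripts reached 10 TPM gave the coarse pattern of the comparison. All 6 libraries reached it for 3310 transcripts (36.3%), whose median levels were 53.7, 54.9 and 50.6 TPM in WT and 41.5, 42.9 and 68.1 TPM in KO replicates 1, 2 and 3. The next largest set, 2655 transcripts (29.1%), reached 10 TPM in all WT libraries and in a single KO library, and for 2645 of them that library was KO replicate 3. Their median levels were 28.8, 26.8 and 25.5 TPM in WT, 1.20 and 1.82 TPM in KO replicates 1 and 2, and 25.9 TPM in KO replicate 3. For this set KO replicate 3 was at the WT level and the other KO cultures were far below it.

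Only a small part of the transcripts divided by genotype at this level. In 404 transcripts all KO libraries and no WT library reached 10 TPM, with medians of 4.50, 5.33 and 4.20 TPM in WT and 30.9, 26.9 and 15.7 TPM in KO. In 299 transcripts the reverse held, with medians of 16.8, 14.5 and 17.4 TPM in WT, a listed 0 in KO replicates 1 and 2, and 7.50 TPM in KO replicate 3. These 404 and 299 transcripts entered through the group in which they were high and so had to differ.

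**Figure D2:**
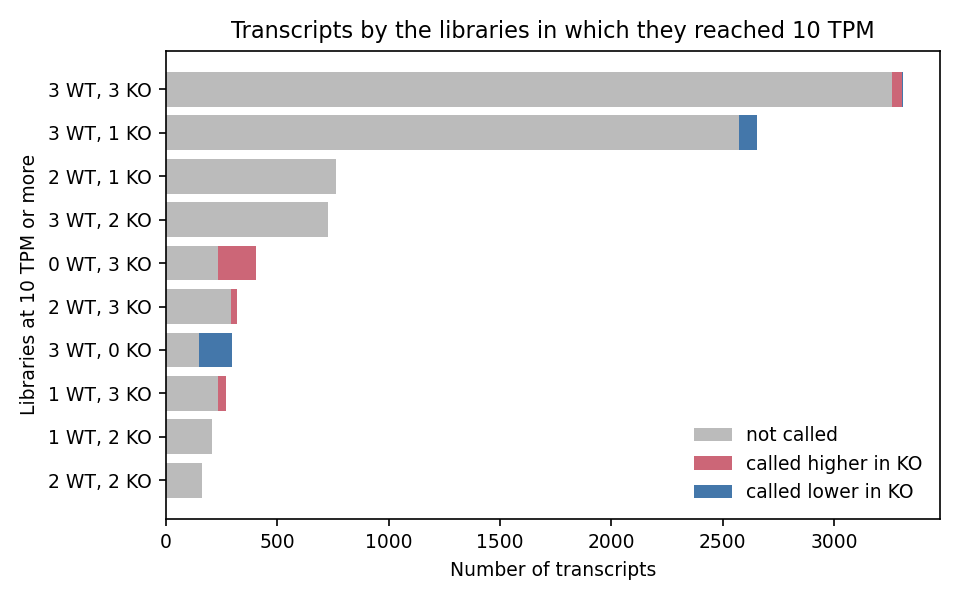
Number of transcripts (x axis) by how many WT and KO Polysome2 libraries reached 10 TPM (y axis), with those called higher or lower in KO in colour. Of the 284 called higher, 171 lie in the bar of KO libraries alone (404 transcripts), and of the 235 called lower, 152 lie in that of WT libraries alone (299 transcripts).

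The genotypes were then compared transcript by transcript. In KO, 284 of the 9121 transcripts rose (3.11%) and 235 fell (2.58%) by limma with Benjamini-Hochberg adjusted p under 0.05 over all 51052 transcripts tested in the series. Over those 51052, 1.9% were called higher and 3.62% lower in the same comparison. The median log2 difference was 3.29 among those that rose, with the middle part from 2.43 to 4.54, and -3.29 among those that fell, with the middle part from -3.85 to -2.85. Over all 9121 transcripts it was -0.85, and over all 51052 it was -0.22. Of the 284 that rose, 171 came from the 404 transcripts at 10 TPM in KO libraries alone, and of the 235 that fell, 152 came from the 299 at 10 TPM in WT libraries alone.

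The calls depended on how the spread was estimated and on which KO cultures were included. This fit pools the spread over all 12 groups and treats the 36 libraries as separate, although 6 cultures supplied them. With only the 6 Polysome2 libraries limma called 0 transcripts, the lowest adjusted p being 0.0734, and 2697 (29.6%) had an unadjusted p under 0.05, against 18.1% of the 51052. With neither KO replicate 1 nor 2, and so with a single KO library assumed to vary like the other groups, limma called 18 that rose and 10 that fell, of which 17 and 8 were among the 284 and 235. Over all 51052 that fit called 152 higher (0.298%) and 43 lower (0.0842%). Without KO replicate 3, 863 rose and 3807 fell, and over all 51052 it was 4593 (9%) and 12922 (25.3%). The replicate number as a block gave 468 that rose and 737 that fell, with 10.4% of all 51052 called in either direction. Culture as a random block gave 435 and 1446, with 11.6% of all called. Leaving out KO replicate 1 gave 68 and 18, leaving out KO replicate 2 gave 30 and 13, and leaving out WT replicates 1, 2 and 3 in turn gave 40 and 30, 96 and 41, and 96 and 45. In these 5 fits 0.811%, 0.535%, 1.17%, 2.34% and 2.1% of all 51052 were called, in the same order.

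The balance between the directions moved with the scaling. Higher transcripts made up 54.7% of the calls, 56.1% with quantile-normalized values, 41.6% with median-of-ratios factors and 0.432% with the spike-in total as the scale. These scalings moved the median log2 difference of all 51052 transcripts from -0.22 to 0.01, -0.13 and -3.40, and that of the 9121 from -0.85 to -0.57, -0.63 and -5.73. The spike-in total moves every transcript of a library by the same factor, so the share after it follows from that shift. In WT Polysome2 this total came from few spike-in rows, as given above.

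Non-overlap of the raw values gave larger sets. In 1399 transcripts (15.3%) all KO values lay above all WT values, and in 1799 (19.7%) all lay below, against 9.86% and 13.8% of the 51052. Of the 284 that rose, 283 did not overlap, and of the 235 that fell, 225 did not. Counted by single libraries, 2128, 2040 and 3740 transcripts in KO replicates 1, 2 and 3 lay above all WT values, and 6053, 5950 and 1969 lay below. KO replicates 1 and 2 thus lay below the WT range for most of the chosen transcripts, and KO replicate 3 lay above it more often than below. Reaching 10 TPM in the WT libraries alone sufficed for a transcript to be chosen, and in KO replicates 1 and 2 alone it did not. The single-library counts therefore follow in part from the choice, and no such counts are given for all 51052.

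KO replicate 3 moved in the same direction as the other KO cultures for the called transcripts, by less. Among the 284 that rose, the median difference from the WT mean on the log2(TPM + 1) scale was 3.83, 3.64 and 2.21 in KO replicates 1, 2 and 3. Among the 235 that fell it was -4.25, -4.23 and -1.22. Over all 9121 transcripts it was -1.44, -1.18 and 0.19, so the typical transcript was lower in KO replicates 1 and 2 and slightly higher in KO replicate 3. KO replicate 3 was nearer to the WT mean than the mean of the other KO cultures for 7639 of the 9121 transcripts (83.8%), 262 of the 284 (92.3%) and 220 of the 235 (93.6%). A call needs replicates that move together, so the shared direction of the called transcripts follows in part from how they were chosen.

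**Figure D3:**
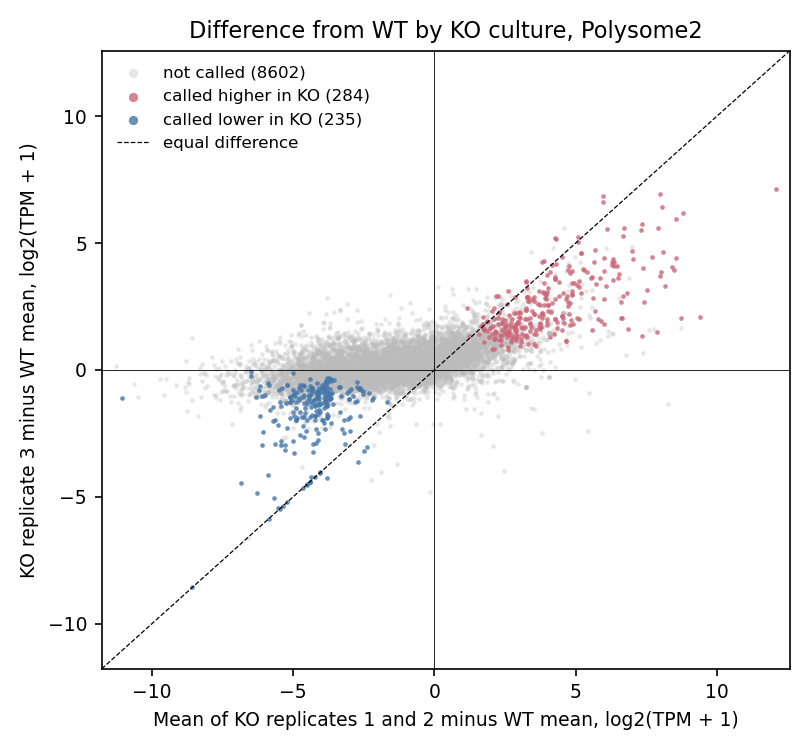
Difference from the WT mean in Polysome2 on the log2(TPM + 1) scale, for the mean of KO replicates 1 and 2 (x axis) and for KO replicate 3 (y axis), with 1 point per transcript and the dashed line where both are equal. Most uncalled transcripts spread along the x axis near 0 on the y axis, and the called ones lie in the quadrants where both differ in the same direction.

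Many of the falls ended at listed zeros. Of the 235 that fell, 118 were listed at 0 in KO replicates 1 and 2, and 107 of these had a value above 0 in KO replicate 3. Only 11 were listed at 0 in all KO libraries. Of the 284 that rose, 19 were listed at 0 in all WT libraries. A listed 0 is an estimate and not a count.

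The direction of the calls differed between bins of abundance, which use the same 6 libraries as the choice and the calls. In 4 bins of near equal size by the mean over the 6 libraries, the lowest bin (2.95 to 10.2 TPM) held 99 that rose and 191 that fell, and the highest (39.5 TPM and above) held 59 and 3. The bins between them held 75 and 30, and 51 and 11. In the lowest bin the median difference from the WT mean was -3.34 and -2.98 in KO replicates 1 and 2 and 0.11 in KO replicate 3, and in the highest bin it was -0.94, -0.71 and 0.11. A transcript listed at 0 in several libraries has a low mean, which places such falls in the lowest bin. Each transcript also had to reach 10 TPM in at least 3 libraries, so a low mean goes with low values in the others. The difference between the bins follows in part from this.

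The called transcripts were then followed through the other fractions of the same cultures. The set that rose was higher in every KO library than in every WT library in Input, 40S, Polysome1 and Polysome2, by its median level. Its median level in Polysome1 was 10.96, 12.01 and 5.83 TPM in WT replicates 1, 2 and 3 and 83.2, 64.3 and 24.5 TPM in KO, close to 80.6, 61.5 and 24.2 TPM in KO Polysome2. In WT Polysome2 it was 3.74, 5.50 and 4.14 TPM, below every WT Polysome1 value. In Input it was 1.71, 2.84 and 1.82 TPM in WT and 28.1, 26.8 and 5.59 TPM in KO, without overlap. In disome, KO replicates 1, 2 and 3 had 8.52, 45.7 and 15.2 TPM and WT had 10.9, 13.2 and 19.5 TPM, so the genotypes overlapped there. They also overlapped in 80S, with 8.60, 7.45 and 15.3 TPM in WT and 37.1, 34.0 and 12.8 TPM in KO.

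The set that fell was at or near a listed 0 in KO replicates 1 and 2 in every fraction. Its median was a listed 0 in both cultures in 40S, 80S, disome, Polysome1 and Polysome2, and it was 0 and 0.228 TPM in Input. KO replicate 3 had 9.34 TPM in Input, 3.95 in 80S, 4.73 in disome, 5.78 in Polysome1 and 8.54 TPM in Polysome2. The WT medians in replicates 1, 2 and 3 were 14.7, 16.1 and 17.1 TPM in Input, 3.45, 4.09 and 1.90 in 80S, 6.69, 5.55 and 0.981 in disome, 7.30, 9.07 and 13.4 in Polysome1 and 23.8, 20.1 and 22.4 TPM in Polysome2. In 40S the WT medians were 1.20, 1.08 and 0 TPM and KO replicate 3 had 0.395 TPM, so WT was low there too. KO replicate 3 was thus within the WT range in 40S, 80S and disome and below it in Input, Polysome1 and Polysome2.

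**Figure D4:**
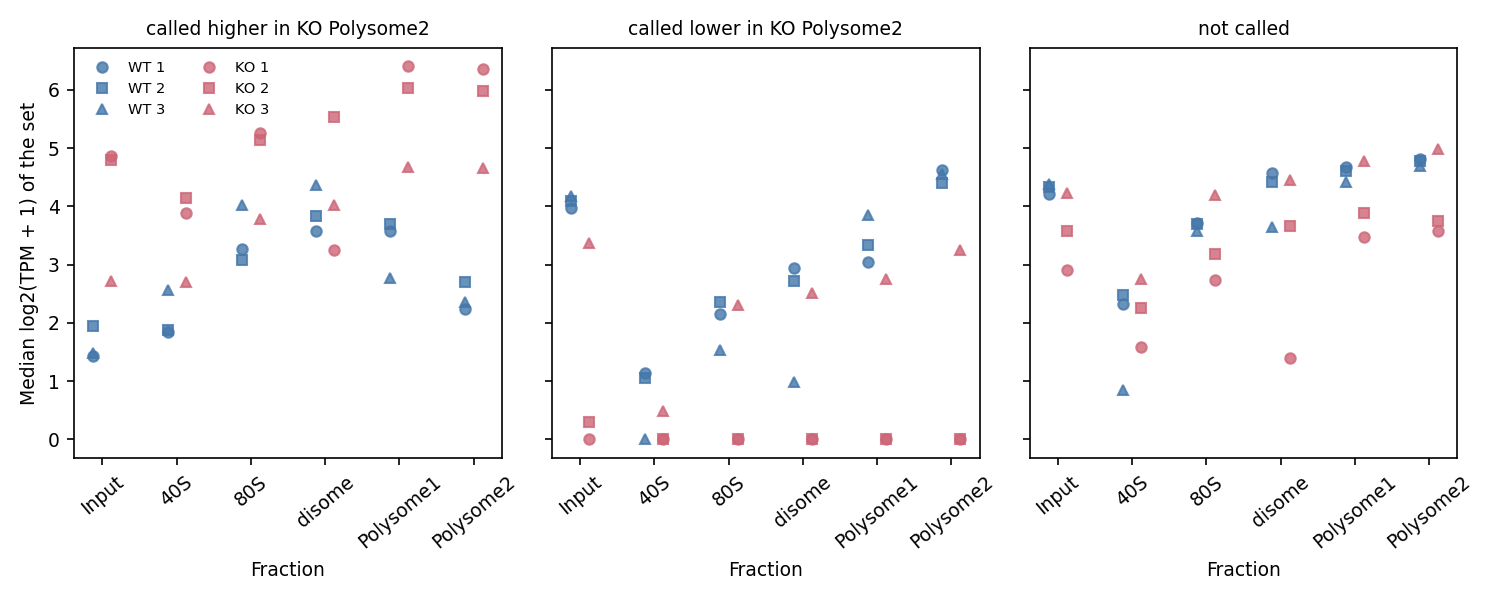
Median log2(TPM + 1) in each of the 36 libraries for the 284 transcripts that rose, the 235 that fell and the 8602 that were not called in KO Polysome2, by fraction (x axis), with colours for genotype and marker shapes for replicate. The set that fell is at or near 0 in KO replicates 1 and 2 in every fraction, and KO replicate 3 follows WT in 80S and disome.

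The sets also differed in where WT cells held them, read from WT libraries outside Polysome2. These libraries gave no value to the Polysome2 difference, but they entered the filter and the pooled spread behind the calls. From WT Input to WT 80S the median log2 difference was 1.57 for the transcripts that rose, with 76.4% above 0, and -2.00 for those that fell, with 5.96% above 0. It was -0.51 for the 8602 not called, with 38.3% above 0. From WT 80S to WT Polysome1 it was -0.04, 1.34 and 0.87 in the same order. These are descriptions without a test, from the same WT cultures. In WT the transcripts that rose in KO were thus richer in monosomes than in Input, and those that fell were poorer. The contrast is not independent of how the sets were chosen, which used the WT Polysome2 level of the same cultures. Of the 284 that rose, 171 entered through KO libraries alone, and of the 235 that fell, 152 entered through WT libraries alone.

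The same comparison was read in Polysome1, the lighter polysome fraction. Of the 9121 transcripts, 254 rose and 120 fell in KO Polysome1 by limma. Over all 51052 tested, 809 rose (1.58%) and 1960 fell (3.84%). Shared with Polysome2 were 111 that rose, which is 39.1% of the Polysome2 set and 43.7% of the Polysome1 set, and 49 that fell, which is 20.9% and 40.8%. No transcript was called in opposite directions. Both sets come from the same cultures and use the same estimate of the spread.

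The difference between the fractions was tested as an interaction term. In the limma fit 1 of the 9121 transcripts had a KO minus WT difference in Polysome2 that was below that in Polysome1, and 0 (0% of the 51052) had one above it, with 113 at an unadjusted p under 0.05. Over the 51052 transcripts 0.00784% were called lower. In the called transcript the log2 difference was -4.41 in Polysome2 and -0.26 in Polysome1. The median interaction over the 9121 was -0.29, and a test that misses the threshold does not show that the fractions respond alike.

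The Polysome2 difference was also tested against that in Input. In KO Input 594 of the 9121 transcripts rose and 586 fell by limma. Over all 51052 tested, 1008 rose (1.97%) and 9184 fell (18%). Of the 284 that rose in Polysome2, 110 also rose in Input, which is 38.7% of the Polysome2 set and 18.5% of the Input set. Of the 235 that fell, 134 also fell in Input, which is 57.0% and 22.9%. The KO minus WT difference was higher in Polysome2 than in Input for 10 of the 9121 transcripts and lower for 20. Over all 51052 tested, 1125 were higher (2.2%) and 54 lower (0.106%), so the direction among the 9121 was the reverse of that over all. The 9121 had to reach 10 TPM in Polysome2 and the 51052 did not, so this contrast depends in part on the choice. The 20 had a median log2 difference of 4.89 in Input and 0.08 in Polysome2, and 16 of them had risen in Input. The 10 had a median of -0.85 in Input and 1.64 in Polysome2, and 6 of them had risen in Polysome2. Without KO replicate 3 the counts were 57 higher and 217 lower. Leaving out KO replicate 1 gave 4 and 9, leaving out KO replicate 2 gave 0 and 4, and leaving out WT replicates 1, 2 and 3 in turn gave 1 and 5, 2 and 11, and 5 and 10. The 0 is limma's, with 197 at an unadjusted p under 0.05. Of all 51052, 1.02% were called in either direction without KO replicate 1 and 0.846% without KO replicate 2. It was 1.95%, 1.93% and 2.22% without WT replicates 1, 2 and 3 in turn, and 5.04% without KO replicate 3.

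The transcripts with the largest changes show what the KO cultures shared and what they did not. ENST00000491404.1 had 0.641, 1.98 and 0.243 TPM in WT Polysome2 and 9920, 6380 and 257 TPM in KO Polysome2. All KO values were far above WT, with KO replicate 3 far below the other KO cultures. Its log2 difference was 10.44 (SE 3.08, limma adjusted p = 0.04378), and the call ended with neither KO replicate 1 nor 2 in the fit (7.14, SE 3.80, limma adjusted p = 0.6264). In Polysome1 it had 6.05, 1.35 and 0.228 TPM in WT and 7260, 10700 and 10.4 TPM in KO, and KO replicate 3 was thus close to WT there. WT replicate 3 had 3360 TPM in 40S, 1120 in 80S and 2020 TPM in disome, while WT replicates 1 and 2 had at most 6.05 TPM in any fraction.

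ENST00000582520.1 was listed at 0, 0.000002 and 0 TPM in WT Polysome2 and had 682, 297 and 71.9 TPM in KO. The groups were far apart in this fraction, and its log2 difference was 7.94 (SE 1.58, limma adjusted p = 0.004411). In Polysome1 it had 18.4, 20.6 and 0 TPM in WT and 693, 528 and 126 TPM in KO, where it also rose (log2 difference 5.59, SE 1.58, limma adjusted p = 0.03977). In Input, KO replicates 1 and 2 had 114 and 94.4 TPM, while KO replicate 3 was listed at 0 as were WT replicates 1 and 3. With neither KO replicate 1 nor 2 its Polysome2 difference was 6.19 (SE 1.77, limma adjusted p = 0.1855).

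ENST00000369387.4 had 521, 179 and 585 TPM in WT Polysome2, and each of the KO Polysome2 libraries listed it at 0. The log2 difference was -8.57 (SE 1.74, limma adjusted p = 0.005123), and the call remained with neither KO replicate 1 nor 2 in the fit (limma adjusted p = 0.001579). KO replicate 3 did hold it elsewhere, with 191 TPM in Input, 52.0 in 80S, 78.5 in disome and 89.1 TPM in Polysome1. WT libraries listed it at 0 in 80S and disome, and had 499, 363 and 244 TPM in Input. WT Polysome1 had 51.6, 288 and 295 TPM. KO replicate 3 thus had a value above 0 in 80S and disome, where WT was listed at 0, lay within the WT range in Polysome1 and was listed at 0 in Polysome2. KO replicates 1 and 2 were listed at 0 in every fraction.

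ENST00000451562.5 had 2560, 3620 and 1060 TPM in WT Polysome2, a listed 0 in KO replicates 1 and 2, and 1000 TPM in KO replicate 3. The log2 difference was -7.74 (SE 2.36, limma adjusted p = 0.04992), next to the threshold. KO replicate 3 lay just below the lowest WT value, and in Input its 1090 TPM lay among the WT values of 980, 1270 and 1040 TPM. With neither KO replicate 1 nor 2 the difference was -1.09 (SE 1.96, limma adjusted p = 0.9738), so the fall rested on those cultures. With only the 6 Polysome2 libraries fitted, the adjusted p of these 4 transcripts by limma was 0.1046, 0.1046, 0.07344 and 0.2603 in the order given.

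**Figure D5:**
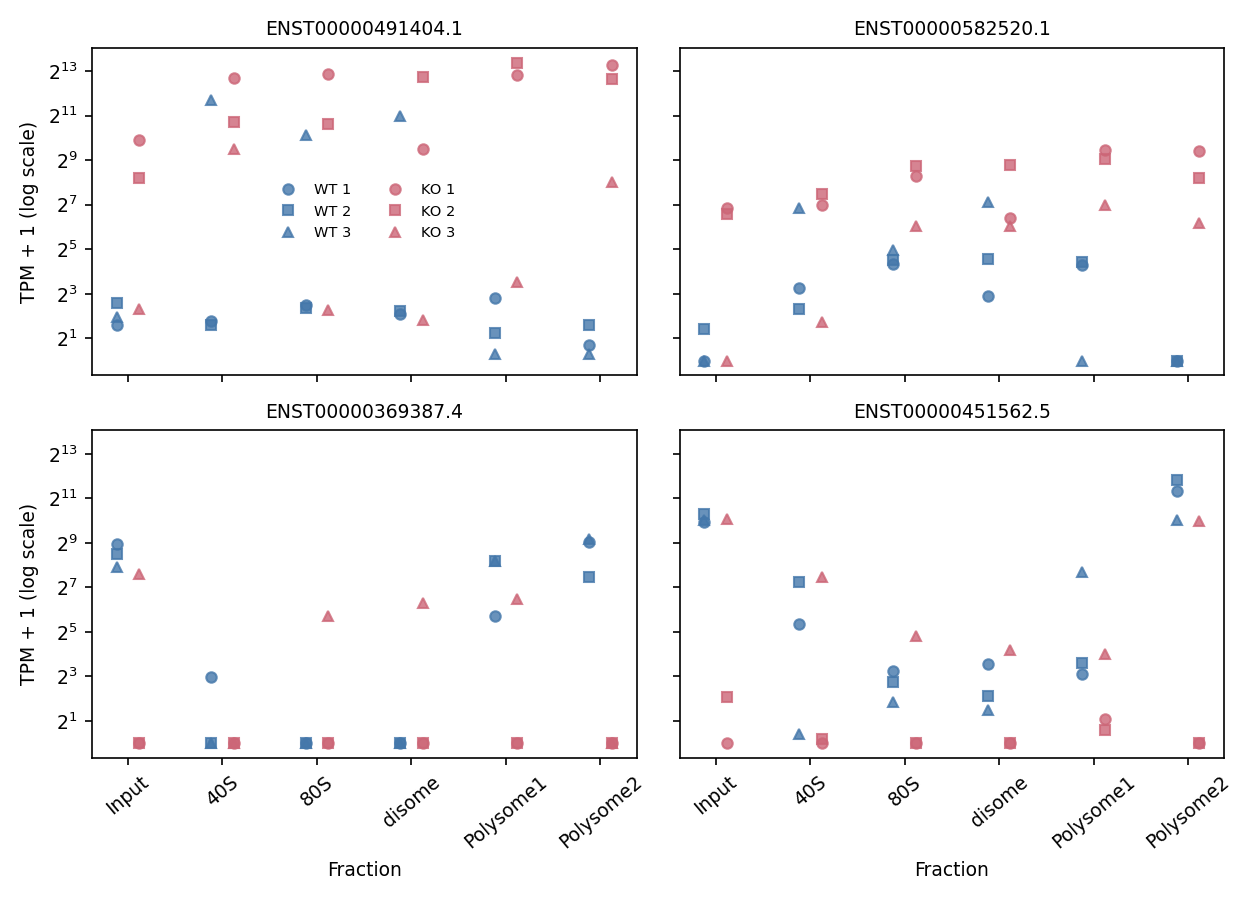
TPM + 1 on a log scale for the 4 named transcripts in all 36 libraries, by fraction (x axis), with colours for genotype and marker shapes for replicate. In Polysome2 the KO values of the upper pair lie above all WT values, and in the lower pair KO replicates 1 and 2 are at a listed 0 while KO replicate 3 of ENST00000451562.5 lies next to the lowest WT value.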

How the data were processed

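The authors deposited 1 table of TPM per transcript for 36 libraries, each summing to 1000000. Per the submitters' processing notes it was made with kallisto and sleuth on hg19; their versions are not given in the sources used here. Libraries were stranded poly(A) mRNA libraries read as paired 75 nt ends, per the labels' protocols. The 92 ERCC rows were set apart. Transcripts with 1 TPM or more in 3 or more libraries (51052) were transformed as log2(TPM + 1), which understates changes of low transcripts. They were fitted with 12 group means by limma 3.58.1 in R 4.3.3 (24 residual degrees of freedom, variance trend). The fit was first tested on simulated data with independent libraries, which does not test it for libraries that share a culture. P-values were adjusted by Benjamini-Hochberg within each comparison, with a threshold of 0.05. The planned sums per gene and gene lists need gene names and were not run. Named transcripts are the 2 largest rises and 2 largest falls among called transcripts without overlap between the genotypes. The transcript set, lists and tests were chosen with earlier results of these data known. Library measures were compared by exact permutation tests over 3 measures. Figures used matplotlib 3.10.9, and tables used pandas 2.3.3, scipy 1.17.1 and numpy 2.4.6 under Python 3.11.15. Alternatives were another pseudocount, filter, scaling, set of libraries and block.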

Additional observations from a re-analysis of the deposited data

Results flagged for a closer look

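In the interaction test, 1 of the 9121 transcripts had a KO minus WT difference in Polysome2 that was lower than in Polysome1. Against Input, 10 transcripts had a difference that was higher in Polysome2 and 20 had one that was lower. These sets were picked out because the difference between 2 fractions under the same contrast passed the limma test. Groups of 3 libraries are too small for the search for single outlying samples.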

How the results depend on the processing

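In the order higher and lower, 284 and 235 transcripts were called, from TPM values whose unknown depth limits what can be said of low levels. The counts were 145 and 33 with a pseudocount of 0.1, 126 and 58 with no filter, 277 and 181 with only the 9121 transcripts in the fit, 258 and 202 with quantile-normalized values, 147 and 206 with median-of-ratios factors, and 38 and 8756 after spike-in scaling. In the same order 2.27%, 0.961%, 5.02%, 2.67%, 2.42% and 76.4% of all transcripts tested in each fit were called. Apart from spike-in scaling, no alternative called a transcript in the direction opposite to the first fit. Limma called 0 and 0 with only the 6 libraries, with 2697 at an unadjusted p under 0.05, and 0 and 0 with the replicate block added to that fit, with 2075. The replicate block in the 36-library fit gave 468 and 737, and culture as a random block gave 435 and 1446. Same-numbered WT and KO Polysome2 libraries did not deviate together (r = -0.219, 0.056 and -0.133), and not every library correlated best with its own number, so the numbers were not taken to pair the samples. Leaving out single cultures gave 30 to 863 higher and 13 to 3807 lower. With neither KO replicate 1 nor 2, an alternative chosen after seeing the data, as was the block in the 6-library fit, 18 were higher and 10 lower, and the median log2 difference over the 9121 transcripts turned from -0.85 to 0.19. It was -5.73 after spike-in scaling and -1.33 to -0.53 when single cultures were left out.

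For the interaction with Polysome1, 0 were higher and 1 lower. With a pseudocount of 0.1, with only the 9121 transcripts in the fit, and with quantile-normalized values and median-of-ratios factors limma called 0 lower, with 97, 129, 487 and 327 at an unadjusted p under 0.05. Spike-in scaling gave 6 higher and 12 lower, and culture as a random block gave 1 higher and 1 lower. Leaving out single cultures gave 0 to 16 lower and 0 higher, with 0% to 0.155% of all 51052 called. After spike-in scaling 0.905% of all 51052 were called, and with culture as a random block 0.0568%. Limma called 0 lower without KO replicate 1, KO replicate 2 or WT replicate 2, with 190, 41 and 33 at an unadjusted p under 0.05.

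For the interaction with Input, 10 were higher and 20 lower. The counts were 3 and 38 with a pseudocount of 0.1, 1 and 6 with only the 9121 transcripts in the fit, 4 and 8 with only the libraries of both fractions, 10 and 47 with quantile-normalized values, 4 and 29 with median-of-ratios factors, and 0 and 486 after spike-in scaling (2734 at an unadjusted p under 0.05). They were 17 and 24 with the replicate block and 43 and 84 with culture as a random block. Leaving out single cultures gave 0 to 57 higher and 4 to 217 lower, the 0 being limma without KO replicate 2, with 197 at an unadjusted p under 0.05. With a pseudocount of 0.1, 0.785% of all transcripts tested in the fit were called. It was 0.0767% with only the 9121 and 0.47% with only the libraries of both fractions. Quantile-normalized values gave 1.43%, median-of-ratios factors 1.77% and spike-in scaling 7.76%. The replicate block gave 2.59% and culture as a random block 4.43%. The cause of these movements was not tested.

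The 4 named transcripts kept their direction in all 17 alternatives. The call was kept in 14 for ENST00000369387.4, 13 for ENST00000582520.1, 5 for ENST00000491404.1 and 4 for ENST00000451562.5. For the library measures the KO minus WT difference was -996 transcripts at 10 TPM and -4624 at 1 TPM, and 3.79 percentage points for the 10 and 8.08 for the 100 most abundant transcripts. Sums per gene were not run because no table pairs the IDs with genes.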
